A study of Mus musculus with 42 samples.

Results

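The olfactory receptor genes of mouse chromosome 9 were examined in phosphorylated ribosome capture from the main olfactory epithelium. They were taken as every gene of the count table with a GENCODE M21 symbol made of Olfr and a number that lies on chromosome 9 of GRCm38. This gave 129 genes of 44674 in the table, and 12.6% of the 1026 receptor genes with such symbols on all chromosomes. Of these, 127 were annotated as protein coding and 2 as polymorphic pseudogenes, and 3 further rows with a pseudogene suffix were left aside. Another 4 such symbols of this chromosome had no row in the count table and could not be analysed. Olfr151 (M71), named in the paper as a primary receptor for acetophenone, was not among the 129.

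Olfactory receptors are G-protein-coupled receptors that detect odorants in the nose. Each mature olfactory sensory neuron transcribes one allele of one receptor gene, so that the RNA of a receptor follows the neurons that chose it. When such a neuron is active, ribosomal protein S6 becomes phosphorylated, and an antibody against phosphorylated S6 pulls down its ribosomes with the messenger RNA on them. In bulk libraries of this kind, fewer neurons of a type and less RNA per neuron cannot be told apart.

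The study asked which receptors each food odour activates. The mice were C57BL/6NCrl males of 8 to 12 weeks, which for 1 h smelled either no food odour or that of a normal chow diet (NCD), a bacon-flavoured diet (BFD, named Bacon in the labels) or a lard-based high-fat diet (HFD). Each sample was a pool of 4 epithelia sequenced as pulldown and as input, and the pools numbered 5 for no odour, 6 for NCD, 5 for BFD and 5 for HFD. All 3 odour groups were set against the same 5 pools without odour, and the p-values measure the spread between pools.

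The 42 libraries held 24839555 to 36781553 estimated counts. Ribosomal RNA genes took a larger share without odour, 24.7% ± 3.62 of input counts and 19.1% ± 4.93 of pulldown counts (SD, n = 5), than in the odour groups, whose means were 10.7% to 14.2% in input and 10.5% to 11.7% in pulldown. Markers of mature olfactory neurons, all 5 of 5 detected, summed to 13770 to 17360 CPM (counts scaled to a common library total) in the inputs without odour and 13950 to 16980 with odour. In the pulldowns, the 3 Bowman gland markers summed to 6106 to 8276 CPM without odour and to 12140 to 22110 CPM with odour. Immature neuron markers summed to 649.2 to 749.9 CPM and 501.6 to 625.5 CPM, and macrophage markers to 68.98 to 100.3 CPM and 33.93 to 56.09 CPM. In these 3 of 10 marker lists the pulldowns with odour did not overlap those without. Their part in the results was not tested. Fits with the ribosomal RNA share are given below.

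The 129 receptors lay in 2 clusters, with every gap between neighbours inside a cluster under 1 Mb. The first held 35 genes from Olfr24 to Olfr18 at chr9:18751507-20336094, a span of 1585 kb. The second held 94 genes from Olfr160 to Olfr986 at chr9:37708964-40190134, a span of 2481 kb. The longest reading frame translated from the annotation of 128 receptors had a median of 312 amino acids (267 to 331), and identity to the closest other receptor of the chromosome had a median of 85.8% (44.2% to 96.8%). At an identity of 80% or more, 86 of the receptors fell into 25 families. A median of 8.06% of the 31-base words of their transcripts also occurred in transcripts of other genes, over 20% in 22 receptors and under 1% in 23. Reads from shared words were divided between genes by estimation, so values of close copies were less certain.

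Among the receptors with the results given below, Olfr983 was the one past the threshold under an odour. Its window of 300 bases around the RefSeq gene start on GRCm38.p6 is shown for this reason. The window of Olfr39 is shown as an example with a homeodomain motif, chosen for that motif. Capitals mark TAATTA, the letters bound by many homeodomain factors, of which Lhx2 and Emx2 act on receptor promoters. The first window is on the minus strand at chr9:40093509-40093808 and the second on the plus strand at chr9:20282101-20282400.
Olfr983: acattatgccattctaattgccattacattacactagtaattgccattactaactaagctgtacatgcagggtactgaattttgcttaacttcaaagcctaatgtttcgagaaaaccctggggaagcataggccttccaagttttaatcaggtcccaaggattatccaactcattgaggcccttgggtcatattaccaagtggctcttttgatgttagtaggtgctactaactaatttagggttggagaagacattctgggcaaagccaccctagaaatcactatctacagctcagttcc
Olfr39: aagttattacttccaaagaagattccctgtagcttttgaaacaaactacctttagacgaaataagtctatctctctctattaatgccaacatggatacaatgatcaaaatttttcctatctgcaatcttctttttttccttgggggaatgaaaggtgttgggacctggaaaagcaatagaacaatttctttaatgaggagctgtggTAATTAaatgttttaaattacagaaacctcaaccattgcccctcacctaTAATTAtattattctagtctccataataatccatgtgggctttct

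The Olfr983 window held no TAATTA and the Olfr39 window held 2. On either strand, TAATTA was found in 27 of the 107 windows of chromosome 9 receptors (25.2%), in 18.6% of 944 receptor windows of all chromosomes and in 5.3% of 32817 windows of all genes. Of the 12 receptors lower in the pulldown without odour, 11 had a window, and 3 of these held it (Olfr39, Olfr869 and Olfr1537). CCCNNGGG, the core of the motif of the EBF factors, was found in 2 of the windows, those of Olfr147 and Olfr983, against 3.07% of receptor windows and 13.7% of all windows. The longer EBF motif, which is this core with T before it and A after it, was found in 0 of the 107 windows, in 0.53% of receptor windows and in 0.905% of all windows. These letters describe the windows and do not show where a factor binds.

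The receptors of chromosome 9 were lowly expressed. Without odour they took 4.43% of the receptor CPM of the inputs and 2.66% of that of the pulldowns, although they made up 12.6% of receptor genes. Of all counts they were 0.00934% ± 0.000882 in these inputs and 0.00687% ± 0.000789 in these pulldowns (SD, n = 5). Their median input level was 0.427 CPM, against 0.818 CPM for the 897 receptors of other chromosomes. Per kb of exonic length, the medians were 0.131 and 0.259 CPM, and chromosome 9 ranked lowest of the 11 chromosomes with at least 20 receptors tested.

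At least 1 count was found for 127 of the 129 receptors in some library, for 103 in every input and for 89 in every pulldown. The filter on low counts kept 102 receptors (79.1%), against 84.9% of the receptors elsewhere. The 27 left out had at most 0.246 CPM in the inputs without odour. The median count of the receptors tested was 14.1 in a pulldown, so small changes of most receptors were not detectable at this depth.

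The highest input level belonged to Olfr983, with 7.78 CPM and 8.33% of the CPM of the 129 receptors. The next, Olfr895, had 3.26 CPM, and the first 10 receptors together held 33.8%. Per kb of exons, the order was Olfr27 (2.30 CPM per kb), Olfr895 (2.09) and Olfr915 (1.50), with Olfr983 in rank 6 (1.25). Olfr27 shared 35.2% of its words with other genes, most of them with its relative Olfr1537, so its level was among the less certain ones.

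Without odour, these receptors were poorly represented in the pulldown. The fitted log2 ratio of pulldown to input had a median of -0.58 over the 102 receptors, against -0.15 over 762 other receptors and 0.01 over all 21168 genes tested. At an adjusted p under 0.001 (the quasi-likelihood test of edgeR, adjusted over all genes by Benjamini and Hochberg), 0 of the 102 were higher in the pulldown, against 13.8% of other receptors and 19.8% of all genes. In the other direction 12 were lower, which is 11.8%, against 10.2% of other receptors and 16% of all genes. These shares were not matched for input level, and counts by level are given below. At an unadjusted p under 0.05, 1 was higher and 40 were lower (0.98% and 39.2%, against 32.8% and 30.7% of all genes). DESeq2 with the same design called 0 higher and 13 lower (12.7%), against 20% and 19% of all genes. The count of 12 was 7 without no odour replicate 1, and 6 with normalization on the receptors alone, with the ribosomal RNA share in the model or on the compared groups only. At an adjusted p under 0.05, 37 were lower (36.3%, against 25.2% of other receptors and 28.5% of all genes) and 1 was higher (0.98%, against 21.3% and 31%).

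Across chromosomes with at least 20 receptors tested, the median log2 ratio ran from -0.58 on chromosome 9 through -0.39 on chromosome 10 to 0.41 on chromosome 1. It was also below 0 on chromosomes 2 (-0.36, 204 tested), 7 (-0.29, 182 tested) and 19 (-0.16, 50 tested), and above 0 on the rest. The share called lower was 13.2% on chromosome 2, 12.3% on chromosome 10 and 12.1% on chromosome 16. These shares were above the 11.8% on chromosome 9, and those of all the other chromosomes were below it. On chromosome 1, 9 of 23 receptors tested were enriched in the pulldown. No test was made between chromosomes, since the genes of a chromosome are not replicates.

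**Figure D1:**
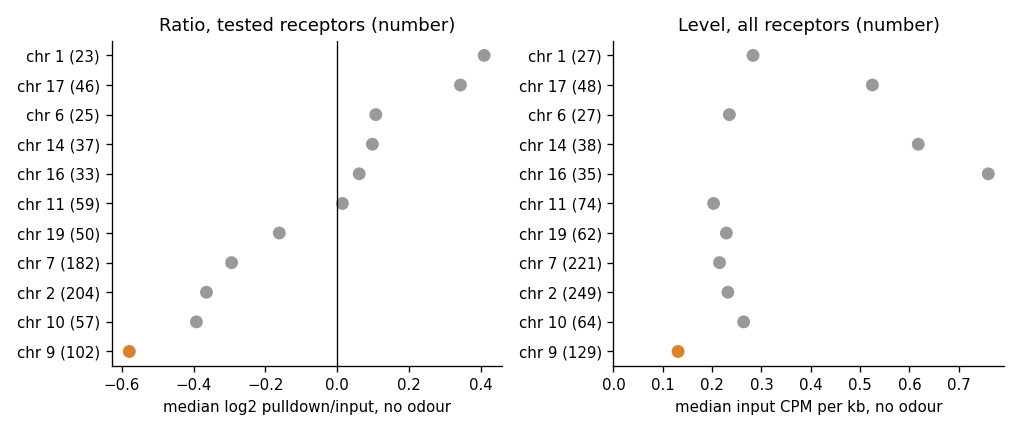
Medians over the receptors of each chromosome with at least 20 receptors tested, without odour: left, fitted log2 pulldown/input ratio of the tested receptors; right, input CPM per kb of exons of all receptors, with the number of receptors in parentheses. Chromosome 9 (orange) has the lowest median in both panels, -0.58 and 0.131 CPM per kb.

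The median ratio was below 0 at all expression levels, while its distance from that of other receptors differed between levels. When all receptors tested were divided into 4 equal groups by input level, chromosome 9 receptors had medians of -0.62, -0.49, -0.73 and -0.47 from the lowest to the highest group (45, 29, 21 and 7 receptors). The other receptors in the same groups had -0.33, -0.40, -0.08 and 0.14. Calls depended on level, since 3 of 171, 9 of 187, 28 of 195 and 65 of 209 of these others were higher in the pulldown. In the second group the 2 medians were close, and 1 of 29 chromosome 9 receptors was lower, against 18 of 187 others. In the lowest group 0 of 45 were lower, against 0 of 171 others. In the third group 8 of 21 were lower, against 24 of 195, and in the highest 3 of 7, against 36 of 209. The median was -0.49 in the first cluster (27 tested, 5 above 0) and -0.62 in the second (75 tested, 18 above 0). It was -0.49 over 15 receptors that shared over 20% of their words and -0.54 over 19 that shared under 1%. With normalization on the receptors alone, the median of all genes moved to 0.14, and those of chromosome 9 and other receptors to -0.44 and -0.02.

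**Figure D2:**
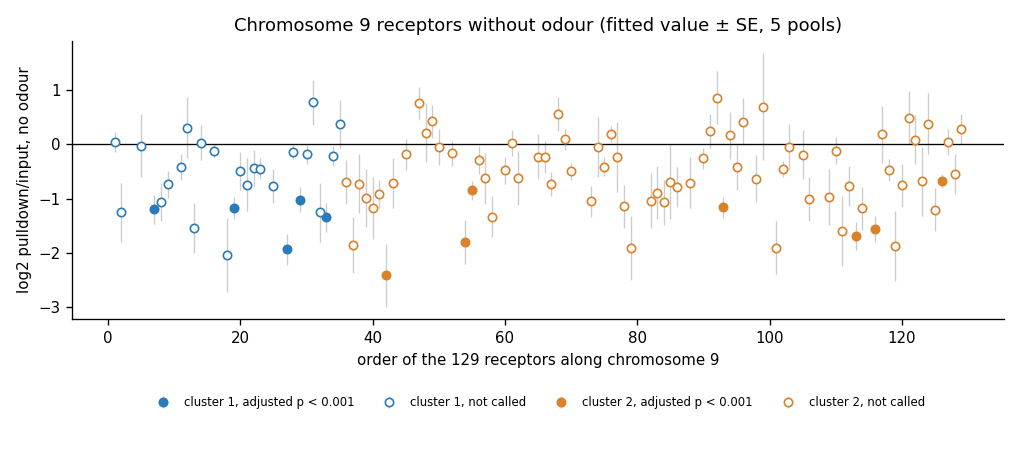
Fitted log2 pulldown/input ratio without odour of the 102 receptors tested, in their order along chromosome 9, with standard errors over 5 pools; filled points passed an adjusted p under 0.001. All 12 filled points lie below 0, 5 of them in the first cluster and 7 in the second.

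The lowest ratio among the 12 was that of Olfr878, at -2.41 (SE 0.578, adjusted p = 0.000855 by edgeR), which had 4, 0, 5, 0 and 7 pulldown counts beside 20, 23, 18, 8 and 22 input counts. Its pulldown counts were too few for a firm size, and its call was lost in 15 of 21 fits without 1 pool. Olfr867, with 4, 10, 13, 9 and 21 pulldown counts beside 55, 38, 62, 34 and 49 input counts, had -1.93 (SE 0.283, adjusted p = 1.985e-06), and all 5 pools were below 0. Olfr867 shared 0.987% of its words with other genes.

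Olfr969 and Olfr972 belong to 1 family of 5 receptors near the end of the second cluster, and had log2 ratios of -1.69 (SE 0.257, adjusted p = 3.445e-06 by edgeR) and -1.55 (SE 0.238, adjusted p = 3.93e-06). The ratios of the pools were -1.62, -1.47, -1.38, -2.48 and -1.06 for Olfr969. For Olfr972 they were -2.17, -1.13, -2.05, -1.14 and -1.16 (pool order as before). All pools of both were below 0, and the 5 receptors of the family ranged from -1.69 to -0.77.

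Olfr143 had a log2 ratio of -1.80 (SE 0.412, adjusted p = 0.00056 by edgeR). Its pools spread from -3.88, where 1 count was found in the pulldown, to -0.91. The ratios of Olfr855, Olfr1537, Olfr869 and Olfr895 were -1.17, -1.16, -1.02 and -0.84, and that of Olfr983 was -0.67 (SE 0.130, adjusted p = 7.943e-05). Olfr39 (-1.34) and Olfr835 (-1.20) completed the 12. In Olfr869, 1 pool of 5 was above 0, at 0.13, and in Olfr835 the highest pool was at -0.18.

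Toward the other end, the highest fitted ratios were 0.86 for Olfr944, 0.78 for Olfr871 and 0.76 for Olfr887, which were not called (adjusted p = 0.132, 0.104 and 0.0284 by edgeR). Genes of the machinery that receptors work with were mostly higher in the pulldown. Of 14 genes of odour transduction, 9 were higher in the pulldown and 0 lower by edgeR, against 19.8% and 16% of all genes. Among the 9 were the adenylate cyclase Adcy3 (0.77) and the channel subunit Cnga2 (0.64). Of 13 genes of receptor trafficking and receptor choice, 9 were higher, including Lhx2 (1.40) and Ebf1 (0.33), and 1 was lower, the trafficking protein Rtp2 (-0.33).

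Exposure to odour moved few receptors of chromosome 9. By edgeR at an adjusted p under 0.001, 0 of 102 rose or fell with NCD odour, 0 with BFD odour and 1, Olfr983, rose with HFD odour. Among all genes tested, 0.359% rose and 0.165% fell with NCD odour, 2.47% and 1.32% under BFD, and 0.699% and 0.52% under HFD. Among receptors of other chromosomes, 17 of 762 rose with NCD odour (2.23%), 33 with that of BFD (4.33%) and 11 with that of HFD (1.44%), so the 0.98% of chromosome 9 under HFD odour was no higher than the share elsewhere. At an unadjusted p under 0.05, 7 were higher and 2 lower under NCD, against 13.9% and 14% of all genes. The counts were 8 and 3 under BFD, against 17.2% and 16.4%, and 8 and 1 under HFD, against 14.4% and 15.2%. Fewer receptors than genes in general thus passed this limit. These shares were not matched for level, and most of the receptors had low counts, which also lowers the number that can pass. DESeq2 with the same design gave an adjusted p to 37, 50 and 37 of the receptors under NCD, BFD and HFD. It called 0, 1 and 1 of them higher, against 1.9%, 6.4% and 2.65% of all genes with such a p. It called 0 lower in each, against 1.38%, 3.8% and 2.44%.

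The median change in log2 ratio of the 102 receptors was 0.14 with NCD, 0.22 with BFD and 0.21 with HFD odour, against 0.24, 0.30 and 0.28 for other receptors and about 0 for all genes. These medians depended on the scaling. With normalization on the receptors alone the medians of all genes moved to -0.23, -0.29 and -0.25, and those of chromosome 9 to -0.09, -0.06 and -0.03. When DESeq2 was run on the quotient of pulldown and input counts, the medians of chromosome 9 were 0.02, 0.21 and 0.18, with 51.96%, 63.73% and 61.76% of the receptors above 0. In the first cluster the medians were 0.01, 0.22 and 0.08, and in the second 0.17, 0.24 and 0.28.

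**Figure D3:**
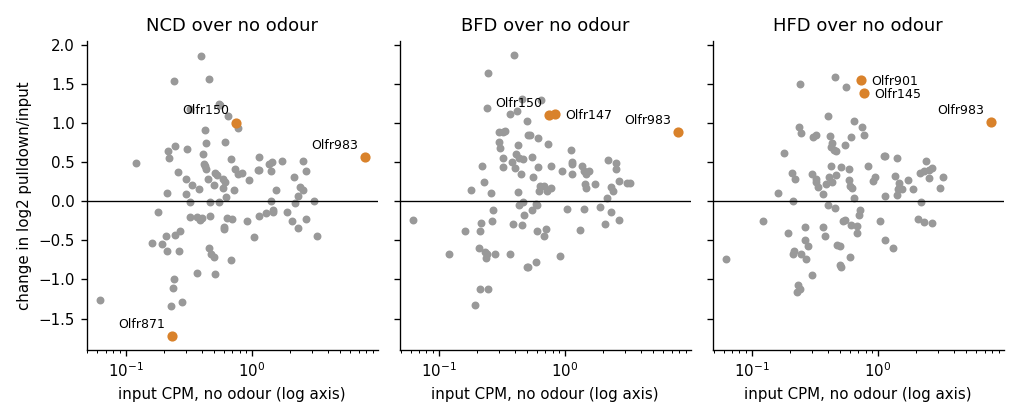
Change in fitted log2 pulldown/input ratio against no odour (y axis) of the 102 receptors by their input CPM without odour (log axis), for each odour, with the 3 receptors of smallest p named in orange in each panel. Olfr983 lies to the right of all others at 7.78 CPM and rises to 1.01 with HFD odour.

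Olfr983 (ENSMUSG00000044205, chr9:40086908-40093595, minus strand) is among the mouse receptors reported to respond to acetophenone. The odours here were those of whole diets, so a response to acetophenone itself was not tested. Its log2 ratios in the 5 pools without odour were -0.31, -1.31, -0.50, -0.68 and -0.60. With HFD odour they were 0.53, 0.60, -0.11, 0.60 and 0.07, all above every pool without odour. The change was 1.01 (SE 0.182, adjusted p = 0.000758 by edgeR).

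With BFD odour the ratios of Olfr983 were 0.32, 0.40, -0.06, -0.15 and 0.53, again above every pool without odour, and the change was 0.89 (SE 0.184, adjusted p = 0.00126). With NCD odour they ran from -0.46 through a median of -0.05 to 0.03, overlapping the highest pool without odour, and the change was 0.56 (SE 0.175, adjusted p = 0.0347). The 3 changes share their controls. The pool at -1.31 stood below the other pools without odour, and without it the change with HFD odour was 0.88 and was not called (adjusted p = 0.00258 by edgeR). Over all fits that left out 1 pool, the call was kept in 9 of 21, with changes from 0.88 to 1.13.

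The input of Olfr983 moved as well. Its input level without odour was 7.82, 9.64, 9.03, 9.50 and 7.84 CPM, here scaled by TMM. In the 16 pools with odour it was 4.74 to 7.10 CPM, so that no pool with odour reached the lowest pool without. The fall over the 3 odours together was -0.61 on the log2 scale (SE 0.0750, adjusted p = 5.456e-06 by edgeR on the 21 inputs), and Olfr983 was the 1 receptor of 100 tested on chromosome 9 that changed in the inputs, against 12% of all genes. At an unadjusted p under 0.05, 8 receptors were higher and 3 lower in the inputs, 11% together against 45% of all genes. DESeq2 also called 1, against 19.5% of all genes.

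The pulldown level of Olfr983 was 6.32, 3.85, 6.38, 5.92 and 5.14 CPM without odour and 7.22, 8.39, 6.37, 8.96 and 7.08 CPM with HFD odour. These groups overlapped only where the lowest HFD pool lay just under the highest pool without odour. In the pulldown libraries alone the change was 0.07 with NCD, 0.07 with BFD and 0.46 with HFD odour (adjusted p = 0.74, 0.775 and 0.0146 by edgeR). The input differences with these odours were -0.47, -0.83 and -0.54 (adjusted p = 0.00152, 3.628e-06 and 0.000713). The share of ribosomal RNA moved with odour in the same libraries. With that share as a covariate, the input difference was -0.27 (adjusted p = 0.767) and the change of the ratio under HFD odour was 0.81 (adjusted p = 0.144), neither past the threshold. The input share was at least 19.21% without odour and at most 18.87% with odour. Since these ranges did not overlap, the input fit cannot separate the share from odour. The ratio fit used the share of the pulldowns only, 11.58% to 23.14% without odour and 8.25% to 14.71% with HFD odour.

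**Figure D4:**
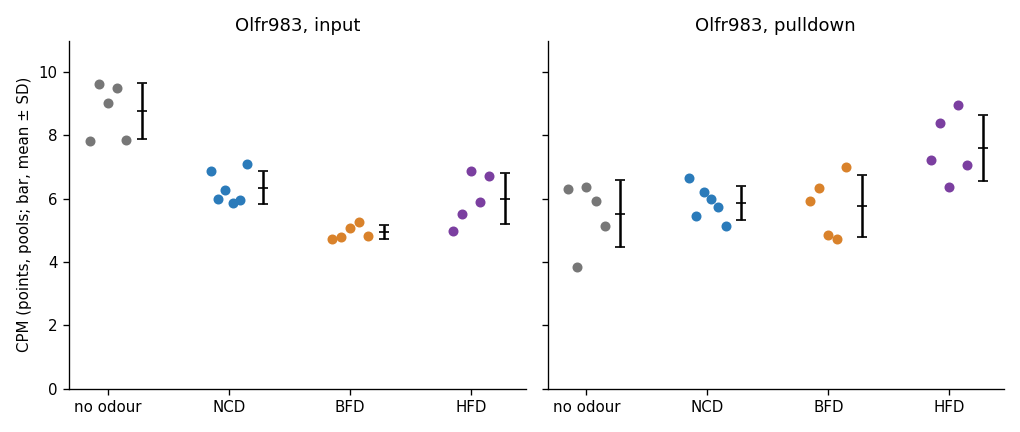
TMM-scaled CPM of Olfr983 in input (left) and pulldown (right) of each pool, with the mean and SD of each group. Inputs with odour lie at 4.74 to 7.10 CPM, below all 5 without odour, while the pulldown groups overlap.

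Olfr901 (ENSMUSG00000052058, chr9:38429455-38432682, plus strand) and Olfr145 (ENSMUSG00000066748, chr9:37896724-37903519, plus strand) came next under HFD odour, and neither passed the threshold on the ratio. The ratios of Olfr901 were 0.44, -0.20, -0.61, -0.15 and 0.54 without odour and 1.60, 1.64, 1.49, 0.73 and 2.18 with HFD odour, with no overlap. Its change was 1.56 (SE 0.336, adjusted p = 0.00321 by edgeR). With NCD odour it was 0.41 (SE 0.328, adjusted p = 0.44) and with BFD odour 0.74 (SE 0.337, adjusted p = 0.121).

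In the pulldown libraries alone, Olfr901 rose with HFD odour by 1.24 (SE 0.211, adjusted p = 0.000159 by edgeR). Its pulldown levels were 1.12, 0.84, 0.47, 0.94 and 0.94 CPM without odour and 2.13, 1.89, 2.27, 1.88 and 2.06 CPM with HFD odour. The input levels were 0.840 ± 0.171 and 0.701 ± 0.266 CPM (SD, n = 5 each), which overlapped. The input change was -0.25 (SE 0.246, adjusted p = 0.508) and was not called.

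The ratios of Olfr145 were -1.17, -0.31, -0.87, -0.95 and -0.84 without odour and 0.39, 0.14, 1.46, 0.45 and -0.19 with HFD odour, with no overlap. Its change was 1.39 with HFD odour (SE 0.346, adjusted p = 0.00824 by edgeR), 0.94 with NCD odour (SE 0.336, adjusted p = 0.0632) and 0.17 with BFD odour (SE 0.342, adjusted p = 0.776). In the pulldown libraries alone it rose with HFD odour by 1.29 (SE 0.259, adjusted p = 0.00087). Of 83 receptors of the chromosome tested there, 2 rose, namely Olfr901 and Olfr145, which is 2.41% against 3.06% of all genes.

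Olfr150 (chr9:39730978-39738456, plus strand) had similar values under each odour, 1.01 with NCD (SE 0.335), 1.10 with BFD (SE 0.347) and 0.95 with HFD odour (SE 0.347), with adjusted p = 0.0469, 0.0225 and 0.0617 by edgeR. Its ratios were -0.14, 0.02, 0.29, -0.77 and 0.07 without odour, 0.48, 1.01, 1.81, 1.08 and 0.32 with BFD odour, and 1.26, 0.66, 0.57, 0.67 and 0.80 with HFD odour. Neither of these odour groups overlapped the pools without odour, while the NCD pools, from 0.18 to 1.36, did. It shared 15.6% of its words with Olfr919, whose protein was 93.6% identical and whose changes were -0.63, -1.13 and -0.68 (SE 0.756, 0.775 and 0.769), so the split of reads between the pair was less certain.

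Olfr147 (chr9:38401698-38407997) was among the 3 smallest p-values with BFD odour, with a change of 1.12 (SE 0.341, adjusted p = 0.0188 by edgeR). Its ratios were -0.11, -0.71, -0.40, -1.33 and 0.21 without odour and 1.04, 0.74, 0.60, 0.81 and -0.14 with BFD odour, with 1 BFD pool inside the range of the others. Olfr871 (chr9:20212207-20213353) had a change of -1.72 with NCD odour (SE 0.571, adjusted p = 0.0459), with 1.03 to 11.3 pulldown counts in the 6 NCD pools. It shared 41.99% of its words with its neighbour Olfr870, whose change was 0.00 (SE 0.237), and was therefore uncertain.

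**Figure D5:**
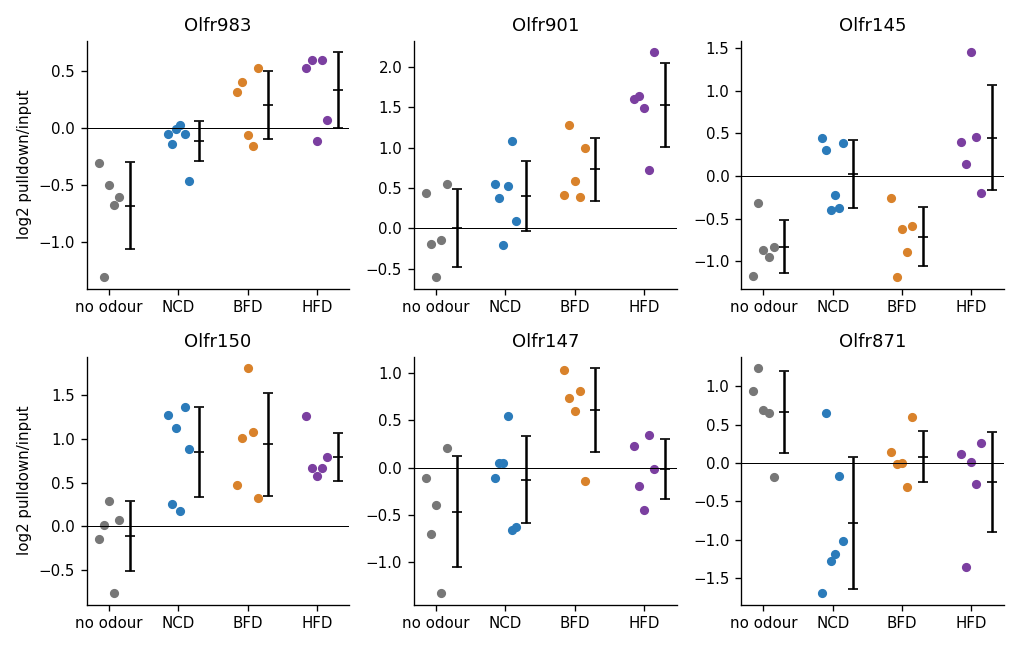
Log2 pulldown/input ratio of each pool for the 6 receptors with the smallest p-values under an odour, with the mean and SD of each group; axes differ between panels. The HFD pools lie above all pools without odour for Olfr983, Olfr901, Olfr145 and Olfr150.

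Across the 102 receptors, 0 had every NCD pool above every pool without odour, 3 had every BFD pool above (Olfr150, Olfr836 and Olfr983) and 4 every HFD pool (Olfr145, Olfr150, Olfr901 and Olfr983). Among all genes tested these shares were 5.73%, 6.45% and 5.04%, higher than the 0, 2.94% and 3.92% here. Every HFD pool was below in 1 receptor, Olfr851 (change -0.28, SE 0.178, not called), against 5.46% of all genes.

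Among close relatives of the receptors named, the changes differed in sign. Olfr983 and Olfr901 belonged to 1 family of 10 receptors, with 80.4% identity to each other. Of the 8 tested, the changes ran from -0.92 to 0.76 with NCD, from -0.84 to 0.89 with BFD and from -0.84 to 1.56 with HFD odour. Olfr890, the closest relative of Olfr901, had values of 0.76, 0.81 and 0.82 (SE 0.433, 0.452 and 0.451), and Olfr889 had -0.92, -0.84 and -0.84 (SE 0.396, 0.405 and 0.409), none of them called. In the family of Olfr145, Olfr874 had 1.09, 1.29 and 1.02 (SE 0.660, 0.697 and 0.688) and Olfr876 had -0.92, -0.68 and -0.33 (SE 0.714, 0.745 and 0.732). Olfr160, known as M72 and also a receptor for acetophenone, had changes of -0.19, 0.54 and 0.34 (SE 0.542, 0.556 and 0.558) on 5 to 18 pulldown counts in a pool.

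Between odours, no receptor of chromosome 9 was called by edgeR in any of the 3 comparisons, against 0.00945% of all genes for BFD over NCD, 0.0236% for HFD over NCD and 0.0378% for HFD over BFD odour. At an unadjusted p under 0.05, 3 were higher and 1 lower with BFD than with NCD odour, 4 and 1 with HFD than with NCD odour, and 4 and 3 with HFD than with BFD odour. These are 3.92%, 4.9% and 6.86% of the receptors, against 7.24%, 4.62% and 8% of all genes. DESeq2 called 0 of 68 receptors for HFD over NCD and 0 of 50 for HFD over BFD odour, against 0.0855% and 0.112% of all genes. For BFD over NCD odour it gave no receptor an adjusted p, and called 0.021% of the genes that had one. Olfr145 was higher with HFD than with BFD odour by 1.22 (SE 0.327, adjusted p = 0.229), the smallest p of the 3 comparisons. Olfr901 had 1.14 for HFD over NCD odour (SE 0.318, adjusted p = 0.516) and 0.82 for HFD over BFD odour (SE 0.328, adjusted p = 0.53). The median SE of these differences was 0.48 to 0.50 on the log2 scale, so small differences between odours were not detectable for most receptors at this depth.

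Genes induced by neuronal activity moved in the inputs. Of 10 such genes, 7 rose over the 3 odours together and 0 fell by edgeR, against 5.26% and 6.73% of all genes. Their median was 0.81, and among them were Fos (1.54) and Egr1 (0.86), both immediate early transcription factors. As given for Olfr983, the ribosomal RNA share of the inputs did not overlap between pools without and with odour. The input fit therefore cannot separate that share from odour for these genes either. The pulldown/input ratio of these 10 genes rose in 0 and fell in 0 with NCD odour and fell in 1 each with BFD and HFD odour. Of the 14 transduction genes, 0, 2 and 0 rose in the ratio with NCD, BFD and HFD odour and 0 fell, and of the 13 trafficking and choice genes 0 changed with any of them. Among all genes tested, the ratio rose in 0.359%, 2.47% and 0.699% with these odours and fell in 0.165%, 1.32% and 0.52%.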

How the data were processed

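Main olfactory epithelium from 21 pools was profiled as pulldown and input. The authors estimated expression with Salmon (GRCm38) and deposited these estimated counts without scaling, of which 32.9% were not whole for these receptors (any difference from the rounded value, tolerance 0). Their later DESeq2 analysis does not enter these values. The annotation release behind the table is not given in the sources used here, and names came from GENCODE M21. The 42 libraries were grouped by the labels.

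Counts were rounded, filtered with filterByExpr (minimum count 10, 21168 genes), scaled by TMM and fitted with pool terms and terms for the pulldown under each odour (edgeR 4.0.16, R 4.3.3). Tests were two-sided, adjusted over all genes and called at 0.001, the threshold of the methods. Inputs alone (20451 genes) and pulldowns alone were fitted by group. Values by pool are log2 differences of TMM-scaled CPM with a prior count of 2. Levels across receptors are CPM of total counts, and lengths are exon unions. In counts simulated for the NCD comparison over 21168 genes, 48 of 100 genes changed 2-fold and 77 of 100 changed 4-fold were recovered, with 0 wrong calls. The changed genes were drawn at random from all genes tested, so these shares need not hold for receptors with low counts. Each library was simulated around its group mean, without effects shared within a pool. No pair of libraries of a group agreed within sampling noise (chi-square per degree of freedom at least 3.33 over 90 pairs).

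By the methods, pulldown and input of a pool are the same tissue; their deviations from the group means had a median correlation of 0.014, and -0.004 for different pools. Ratios of pools with the same replicate number under different odours had a median correlation of 0.020 (-0.214 to 0.112). Libraries of the same pool correlated as weakly, so this measure cannot tell whether replicate numbers paired the pools.

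Receptors were named if called under or between odours, among the 3 smallest p-values of an odour, among the 5 lowest or 5 highest calls without odour, among the 3 highest per kb, or related to one named; Olfr39, Olfr160, Olfr835 and others were picked with their values in view. The receptors and lists were chosen with earlier results of these data known. Alternatives were other size factors, DESeq2 1.42.0 (in the same design, or on the ratio, leaving out genes with no adjusted p), other filters, fits without the pool term, with the replicate number, on compared groups only or with the ribosomal RNA share, an adjusted p of 0.05, each pool left out, and, added after the data were seen, normalization on the receptors alone. RefSeq promoter windows (GRCm38.p6) matched 106 of the 129 receptors, with 107 windows; CCCNNGGG was searched as an addition to the other motifs.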

Additional observations from a re-analysis of the deposited data

Results flagged for a closer look

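Over 41 groups of 5 or 6 pools of the receptors named, 2 held a pool that stood far from the others, and chance gives about 1 in 20 groups. With NCD odour, the log2 pulldown/input ratio of Olfr983 was -0.46 in replicate 6, below the other pools at -0.133 to 0.0312. Without odour, the log2 ratio of Olfr895 was -1.26 in replicate 4, below the other pools at -0.808 to -0.647. The pool of Olfr983 without odour at -1.31 was not far enough from its group by the same measure.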

How the results depend on the processing

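The call of Olfr983 under HFD odour (1 receptor) was lost, to 0, with a replicate block (log2 change 0.95, adjusted p = 0.00386 by edgeR), on the compared groups only (0.00647), with ribosomal RNA share in the model (0.144) and with normalization on the receptors alone (0.00329). It was kept in 9 of 21 fits that left out a pool (count 0 to 1, log2 change 0.88 to 1.13, adjusted p 0.000448 to 0.00382). It was lost without replicates 2, 3, 4 or 6 of no odour, 1 to 5 of NCD odour or 1, 2 or 5 of HFD odour. DESeq2 on pulldown divided by input called 2 receptors with HFD odour, Olfr983 and Olfr901, and an adjusted p of 0.05 gave 3 (against 7.67% of all genes). With BFD odour the count of 0 became 1, Olfr983, with DESeq2, no filter, a minimum count of 30, no replicate block (no pool term), ribosomal RNA genes left out or DESeq2 on the ratio, and 3 at 0.05 (against 12%). With NCD odour it became 2 higher and 1 lower at 0.05 (against 6.79% and 6.31%). Without odour, 12 lower became 6 on the compared groups only, 6 with the ribosomal RNA share, 6 with normalization on the receptors alone and 37 at 0.05, where 1 was higher (against 28.5% and 31%). Leaving out a pool gave 7 to 12, with 7 without no odour replicate 1. Of the calls without odour, that of Olfr143 was also lost without no odour replicates 1, 2 or 3, Olfr869 without 1, 3 or 6, Olfr895 without 4 and Olfr983 without 2. Olfr878 kept its call without BFD replicates 1 or 3, HFD replicate 5 or NCD replicates 2, 3 or 4 and in no other such fit. In the inputs, 1 became 0 with the ribosomal RNA share and 6 at 0.05 (against 37.2%). Between odours the count was 0 in every alternative that gave a value; DESeq2 gave none for BFD over NCD odour. Of 20 values of named receptors recomputed in 27 to 32 fits each, 0 changed sign; other named receptors were not recomputed here. The cause of these differences was not tested. The median of 14.1 pulldown counts per receptor limits what small changes can be seen.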
